A study of Homo sapiens with 26 samples.

Results

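The mRNAs of 8 co-chaperones of the heat shock protein HSP70 were followed through arsenite stress in HCT116 cells, a human colorectal carcinoma line. They were the J-domain genes DNAJA1, DNAJA2, DNAJA4, DNAJB1, DNAJB2, DNAJB4 and DNAJB6 and the BAG domain gene BAG3, taken by name from a count table of 63086 genes. All 8 passed the filter on low counts and were among the 9099 genes tested. The study had asked how charged substitutions in the disordered linkers of the RNA-binding protein IGF2BP1 act on the transcriptome.

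Of the 26 libraries, 24 came from 4 cell populations that each carried mCherry-IGF2BP1, either wild-type (WT), with glutamic acid in place of a serine of the first linker (S181E) or a tyrosine of the second (Y396E), or with arginines of the first linker replaced by glutamine (RQ). All 4 populations shared a knockout of IGF2BP2 and of IGF2BP3 and the Tet-OsTIR1-PURO construct, and were sorted through a narrow mCherry gate after lentiviral transduction with a vector holding the hPGK promoter. The knockout cells went back to single-cell clones. Each population was sampled as 3 dishes with PBS (control) and 3 dishes with 500 µM sodium arsenite for 2 h. The remaining 2 libraries were parental HCT116 cells, 1 per treatment, without the transgene or the knockouts and without replicates. RNA was taken from clarified lysate, so RNA that sedimented with the pellet was not measured.

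Totals ran from 22508145 to 50834401 counts per library. IGF2BP1 was at 0.347 and 0.645 counts per 1000000 (CPM) in the parental libraries and at 10.6 to 48.0 CPM in the other 24. IGF2BP2 and IGF2BP3 RNA was still counted in those 24 libraries, at 62.3 to 91.3 and 109 to 166 CPM, so the counts did not check the edits. Of 6 epithelial markers, EPCAM, KRT8, KRT18, KRT19 and CDH1 lay between 23.7 and 2395 CPM in every library, whereas VIL1 did not pass 0.228 CPM. The leukocyte marker PTPRC, the endothelial marker PECAM1 and the hepatocyte marker ALB stayed below 0.273 CPM, and the fibroblast marker COL1A1 was at 6.55 to 11.5 CPM. The third Y396E arsenite library had counts for 13897 genes against at least 20850 in the others, and printed Y396E values that moved by over 1.5 times or lost a call without it are given with and without it.

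HSP70 binds unfolded stretches of client proteins and releases them in a cycle driven by ATP. J-domain proteins deliver clients and speed up ATP hydrolysis, and BAG domain proteins help release the nucleotide. Misfolded proteins, including those formed under arsenite, free the transcription factor HSF1, which binds heat shock elements built from inverted repeats of GAA and raises transcription of many chaperone genes.

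The letters before the start sites of these genes are shown because the arsenite responses below fall into strong and weak ones. A pair of facing GAA units was searched as GAANNTTC or TTCNNGAA, which read the same on both strands, within 250 bases before each RefSeq start site (GRCh38.p14). At least 1 pair stood in the windows of 5 of the 8 genes (62.5%), DNAJA1, DNAJA4, DNAJB1, DNAJB4 and DNAJB6, against 14% of 27305 genes with a window. DNAJA2, DNAJB2 and BAG3 had no match. Genes with more windows had more chances of a match. DNAJA4 and DNAJB1 had 3 windows each and DNAJB4 had 2, with 1 matching in each, and 11.6% of all windows held a pair. Of the sequences below, read 5′ to 3′ on the gene's strand up to the nearest annotated exon, 4 hold pairs, which are in capitals, and that of BAG3 holds none.
DNAJB1, chr19:14518408-14518647, minus strand: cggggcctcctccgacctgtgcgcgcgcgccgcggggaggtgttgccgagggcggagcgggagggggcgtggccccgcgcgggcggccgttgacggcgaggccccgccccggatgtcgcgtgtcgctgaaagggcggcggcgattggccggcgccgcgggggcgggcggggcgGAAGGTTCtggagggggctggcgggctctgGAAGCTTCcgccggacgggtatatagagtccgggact
DNAJA4, chr15:78264394-78264543, plus strand: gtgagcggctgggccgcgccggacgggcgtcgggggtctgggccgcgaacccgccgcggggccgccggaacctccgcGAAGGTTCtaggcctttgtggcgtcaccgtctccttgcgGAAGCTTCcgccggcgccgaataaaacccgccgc
DNAJB4, chr1:78004689-78004934, plus strand: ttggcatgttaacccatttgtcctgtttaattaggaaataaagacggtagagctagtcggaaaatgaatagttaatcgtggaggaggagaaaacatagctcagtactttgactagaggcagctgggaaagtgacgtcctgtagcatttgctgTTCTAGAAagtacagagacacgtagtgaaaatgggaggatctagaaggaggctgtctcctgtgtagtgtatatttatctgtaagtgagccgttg
DNAJB6, chr7:157336774-157336965, plus strand: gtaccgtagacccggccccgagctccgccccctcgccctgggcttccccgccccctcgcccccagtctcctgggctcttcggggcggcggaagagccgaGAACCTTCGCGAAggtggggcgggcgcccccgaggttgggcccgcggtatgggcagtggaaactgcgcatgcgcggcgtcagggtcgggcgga
BAG3, chr10:119651130-119651379, plus strand: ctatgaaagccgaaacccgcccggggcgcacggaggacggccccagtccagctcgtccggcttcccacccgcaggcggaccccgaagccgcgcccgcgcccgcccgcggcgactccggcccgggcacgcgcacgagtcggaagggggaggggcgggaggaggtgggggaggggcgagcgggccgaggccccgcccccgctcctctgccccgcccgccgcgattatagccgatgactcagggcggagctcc
DNAJB1 and DNAJA4 each carried GAAGGTTC and GAAGCTTC, at 77 and 47 bases before the start in DNAJB1 and at 91 and 52 bases in DNAJA4. In DNAJB6 the pairs GAACCTTC and TTCGCGAA overlapped and formed 3 units in a row, which 0.557% of genes held. A match describes letters and not a bound site. Only exact pairs within 250 bases were searched, so a gene without a match may hold other elements. DNAJB6 with its 3 units and DNAJB2 without a pair responded least to arsenite, and BAG3 without a pair responded most. Whether the pairs bear on the responses was not tested.

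Arsenite raised most of these mRNAs in every population. In WT cells 6 of the 8 rose, where 36.3% of all tested genes did, and the median change of the 8 was 1.79 on the log2 scale against -0.01 for all genes. A gene is counted as changed where its fold change exceeded 1.2 and its Benjamini-Hochberg adjusted p in edgeR's quasi-likelihood test was under 0.05. The same count was 6 in RQ cells (37.1% of all genes), 6 in S181E cells (32.0%) and 7 in Y396E cells (32.9%), and none of the 8 fell in any population, where 35.9% of all genes fell in WT and 35.8% in RQ, 33.3% in S181E and 32.9% in Y396E. The summed level of the 8 genes was 698 ± 21.8 CPM in WT control cells and 3168 ± 22.7 CPM after arsenite (mean ± SD, n = 3 here and throughout). After arsenite it reached 3539 ± 182 CPM in RQ cells, but 2042 ± 75.8 in S181E and 2065 ± 53.4 in Y396E cells. In control cells the sums of the 3 mutants lay between 704 and 724 CPM. In these bulk libraries fewer responding cells and less RNA per cell cannot be told apart.

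**Figure D1:**
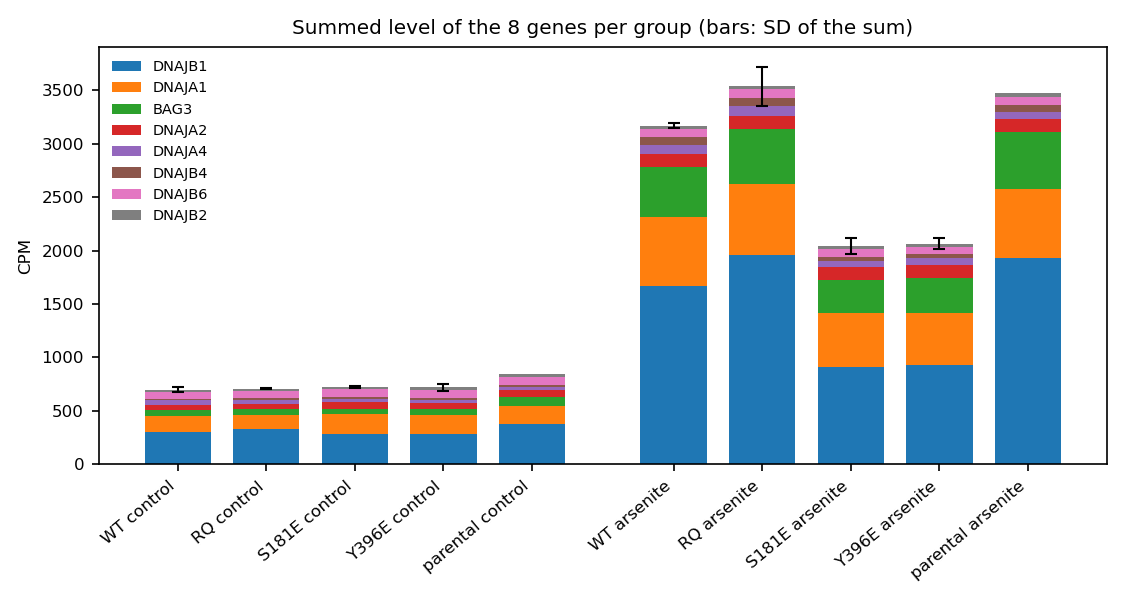
Mean CPM of the 8 genes, stacked, in each group, with the SD of the sum over 3 libraries (no error for the single parental libraries); the axis starts at 0. The control sums lie between 698 and 839 CPM, and the arsenite sums of S181E and Y396E, 2042 and 2065 CPM, lie below those of WT, RQ and the parental cells, at 3168 to 3539 CPM.

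Per kilobase of annotated exon, the order of levels in WT control cells was DNAJA1 (62.1 CPM per kb), DNAJB1 (43.9), BAG3 (22.8), DNAJB6 (19.3), DNAJA2 (15.8), DNAJA4 (10.4), DNAJB2 (8.40) and DNAJB4 (4.16), with no overlap between the libraries of neighbours. The annotated exons of DNAJB1 add up to 6887 bases, over those of every other member, so its level per kb is a low estimate. After arsenite the order in WT was DNAJA1 (279 CPM per kb), DNAJB1 (242), BAG3 (182), DNAJA2 (42.1), DNAJB4 (24.5), DNAJB6 (22.7), DNAJA4 (20.5) and DNAJB2 (9.39). DNAJB4 thus passed from the last place to the fifth. In S181E and Y396E arsenite cells it stood seventh, at 13.6 and 12.6 CPM per kb, where its libraries overlapped those of DNAJA4.

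**Figure D2:**
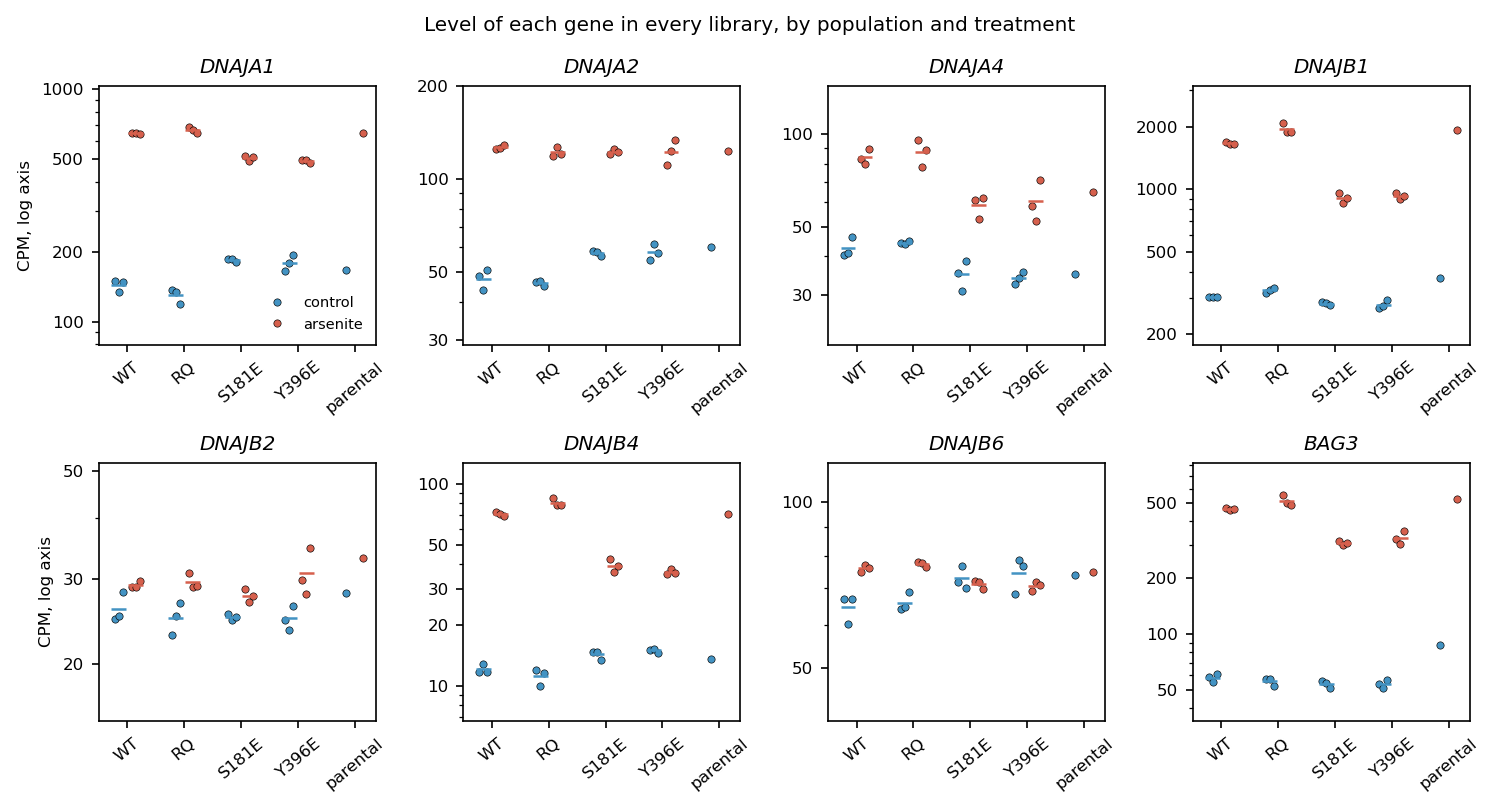
CPM of each gene (log axis) in all 26 libraries by population, with control in blue and arsenite in red and a bar at each mean of 3; the parental cells have 1 library per treatment. Arsenite libraries of DNAJB1, DNAJB4, BAG3, DNAJA1 and DNAJA4 sit lower in S181E and Y396E than in WT, and those of DNAJB6 and DNAJB2 sit close to the control libraries throughout.

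DNAJB1 (ENSG00000132002, chromosome 19, 14514769 to 14560262 in hg38, minus strand) encodes the best known stress-inducible class B J-protein of the cytosol. In WT it was at 302, 302 and 303 CPM in control and at 1687, 1656 and 1659 CPM in arsenite. In S181E the control libraries were at 285, 282 and 277 CPM and the arsenite libraries at 957, 862 and 903. In Y396E they were at 267, 273 and 291 CPM and at 955, 894 and 927. Control levels of both mutants thus lay slightly under those of WT, while the arsenite libraries of the mutants reached 957 CPM at most and those of WT 1656 at least. RQ libraries lay above those of WT, with 318, 327 and 333 CPM in control and 2098, 1886 and 1883 in arsenite, but no difference in level or response was called. The induction was 5.52-fold in WT and 6.0-fold in RQ, against 3.23-fold in S181E and 3.34-fold in Y396E. The response was smaller than that of WT by -0.77 ± 0.07 (log2 ± SE) in S181E and -0.73 ± 0.07 in Y396E (edgeR quasi-likelihood interaction, adjusted p = 7.74e-08 and 1.9e-07). In arsenite the level was 1.84-fold lower in S181E and 1.80-fold lower in Y396E than in WT (edgeR, adjusted p = 3.12e-13 and 4.74e-13), whereas the control differences of -0.11 and -0.12 did not pass the fold threshold. In RQ arsenite cells DNAJB1 was 0.23 higher than in WT (95% interval 0.13 to 0.33, edgeR adjusted p = 0.00448), also under the fold threshold. By library totals alone the control differences of S181E and Y396E from WT were 0.05 and 0.005, so the lower control levels depended on the scaling.

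BAG3 (ENSG00000151929, chromosome 10, 119651380 to 119677819, plus strand) encodes the stress-inducible BAG protein, which links HSP70 clients to small heat shock proteins and to selective autophagy. It had the highest induction of the 8 in each population. In WT it rose from 58.9, 55.1 and 61.3 CPM to 469, 463 and 465 CPM. In S181E it went from 55.7, 54.8 and 51.2 CPM to 316, 299 and 308, and in Y396E from 54.3, 51.7 and 56.5 CPM to 321, 303 and 355. The control libraries of the mutants overlapped those of WT, and the arsenite libraries did not. In RQ the control libraries were at 57.6, 57.4 and 53.0 CPM and the arsenite libraries at 551, 505 and 488, all above WT. The folds were 7.97 in WT and 9.19 in RQ, against 5.71 in S181E and 6.02 in Y396E. Against WT the response was smaller by -0.48 ± 0.08 in S181E and -0.40 ± 0.08 in Y396E (edgeR interaction, adjusted p = 5.24e-04 and 0.00159). The arsenite level was 1.51-fold and 1.43-fold lower (edgeR, adjusted p = 8.31e-09 and 9.76e-08).

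DNAJA1 (ENSG00000086061, chromosome 9, 33025273 to 33039907, plus strand) encodes an abundant class A J-protein that works with HSP70 in folding and in protein import. Its control libraries were at 150, 134 and 149 CPM in WT, at 186, 186 and 181.4 in S181E and at 166, 179 and 194 in Y396E. After arsenite they were at 652, 648 and 641 CPM in WT, at 519, 492 and 510 in S181E and at 496, 498 and 484 in Y396E. The mutants therefore started above WT and ended below it, with no overlap at either treatment. The control difference was 0.36 ± 0.05 in S181E and 0.32 ± 0.05 in Y396E (edgeR, adjusted p = 1.13e-05 and 5.63e-05), and the arsenite difference was -0.35 ± 0.05 and -0.39 ± 0.05 (adjusted p = 2.15e-05 and 3.16e-06). RQ, at 119 to 137 CPM in control and 649 to 690 in arsenite, overlapped WT. The induction was 4.49-fold in WT and 5.15-fold in RQ, against 2.75-fold in S181E and 2.74-fold in Y396E, and the response was 0.71 lower on the log2 scale in both mutants, with an SE of 0.08 (edgeR interaction, adjusted p = 2.14e-06 and 1.5e-06). The Y396E control call was lost without the third Y396E control library, at 0.26.

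DNAJB4 (ENSG00000162616, chromosome 1, 78004939 to 78017964, plus strand) encodes a class B protein closely related to DNAJB1. Its levels were the lowest of the 8 in control, at 11.7, 12.8 and 11.7 CPM in WT, 14.8, 14.7 and 13.5 in S181E and 15.1, 15.2 and 14.6 in Y396E. After arsenite it was at 72.8, 71.2 and 69.4 CPM in WT, at 42.7, 36.4 and 39.1 in S181E and at 35.8, 37.7 and 36.0 in Y396E. No S181E or Y396E library overlapped WT at either treatment, and the order of the groups turned with arsenite as for DNAJA1. RQ went from between 10.03 and 12.04 CPM to between 78.2 and 84.96 CPM. The fold was 5.90 in WT and 7.18 in RQ, against 2.76 in S181E and 2.44 in Y396E, and the response was smaller than in WT by -1.10 ± 0.10 in S181E and -1.27 ± 0.10 in Y396E (edgeR interaction, adjusted p = 1.55e-07 and 2.85e-08), the widest gap among the 8. The control difference passed in Y396E (0.31 ± 0.08, edgeR adjusted p = 0.00172) and stayed under the fold threshold in S181E (0.25 ± 0.08), where it passed without the second WT or the third S181E control library (0.29 in each case). In arsenite the level was 1.81-fold lower in S181E and 1.95-fold lower in Y396E.

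DNAJA2 (ENSG00000069345, chromosome 16, 46955362 to 46973674, minus strand) is the class A paralog of DNAJA1 and supports refolding by HSP70. In control it was at 48.4, 43.5 and 50.7 CPM in WT, at 58.5, 57.8 and 56.2 in S181E and at 54.6, 61.5 and 57.5 in Y396E. In arsenite it was at 125, 126 and 129 CPM in WT, at 120, 125 and 122 in S181E and at 111, 123 and 134 in Y396E. The control levels of the mutants lay above WT without overlap, and the arsenite levels overlapped. The control difference was 0.27 ± 0.06 in S181E and 0.28 ± 0.06 in Y396E (edgeR, adjusted p = 7.53e-04 and 6.93e-04), close to the fold threshold of 0.26. Without the second WT control library it was 0.22 in both, under that threshold, as it was without the first S181E (0.26) or the second Y396E control library (0.24). The arsenite difference was -0.05 in both, with 95% intervals of -0.17 to 0.07, and -0.11 in Y396E without the third Y396E arsenite library, which did not pass. The response, 2.66-fold in WT, was 2.13-fold and 2.12-fold in S181E and Y396E, smaller by -0.32 ± 0.08 and -0.33 ± 0.08 (edgeR interaction, adjusted p = 0.011 and 0.00735).

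DNAJB6 (ENSG00000105993, chromosome 7, 157336966 to 157417439, plus strand) encodes a class B protein known for holding back aggregation of polyglutamine proteins. Its control libraries were at 66.6, 60.2 and 66.8 CPM in WT, at 71.7, 76.7 and 69.9 in S181E and at 68.3, 78.5 and 76.5 in Y396E. With arsenite they were at 74.7, 77.0 and 76.0 CPM in WT, 72.0, 71.6 and 69.5 in S181E and 69.0, 71.6 and 70.9 in Y396E. Control libraries of the mutants lay above those of WT without overlap, by less than the fold threshold, and their arsenite libraries overlapped with their own controls. The change was 0.23 ± 0.05 in WT and RQ, under the fold threshold, and -0.03 ± 0.05 and -0.08 ± 0.05 in S181E and Y396E. The difference in response was -0.27 ± 0.08 in S181E and -0.31 ± 0.08 in Y396E (edgeR interaction, adjusted p = 0.0171 and 0.00537). In S181E this lay next to the fold threshold and was lost without the second WT (-0.22) or second S181E control library (-0.23), without the second WT (-0.26) or the third S181E arsenite library (-0.25) and in 4 of the other settings. Between 0.179% and 1.85% of the counts pooled over DNAJB6 and its 8 processed copies were assigned to those copies.

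DNAJA4 (ENSG00000140403, chromosome 15, 78264086 to 78282196, plus strand) is a further class A gene with a stress-inducible transcript. In control it was at 40.3, 41.1 and 46.3 CPM in WT, at 35.4, 30.9 and 38.6 in S181E and at 32.5, 33.9 and 35.5 in Y396E. In arsenite it was at 83.4, 79.9 and 89.8 CPM in WT, at 61.3, 53.0 and 62.1 in S181E and at 58.2, 52.0 and 71.0 in Y396E. Like DNAJB1 it was lower in both mutants at both treatments without overlap, but here the control differences also passed. The control difference was -0.28 ± 0.10 in S181E and -0.32 ± 0.10 in Y396E (edgeR, adjusted p = 0.0224 and 0.0106), and the arsenite difference was -0.52 ± 0.10 and -0.48 ± 0.09 (adjusted p = 2.12e-04 and 3.26e-04). The control calls were lost without the third WT control library (-0.22 and -0.26) and, in S181E, without the second S181E library (-0.20). Arsenite raised DNAJA4 1.98-fold in WT and 1.97-fold in RQ, 1.68-fold in S181E and 1.78-fold in Y396E, and the differences in response, -0.24 (95% interval -0.53 to 0.05) and -0.16 (-0.45 to 0.13), did not pass. Without the third Y396E arsenite library the latter was -0.29 and did not pass either.

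DNAJB2 (ENSG00000135924, chromosome 2, 219279344 to 219286898, plus strand), known in neurons for sorting clients towards the proteasome, barely moved. Its control libraries ranged from 22.9 to 28.1 CPM and its arsenite libraries from 26.9 to 34.6 CPM over the 4 populations. The rise was 0.16 in WT and 0.25 in RQ, 0.15 in S181E and 0.30 in Y396E, of which the last passed (edgeR, adjusted p = 9.97e-04). It rested on the third Y396E arsenite library, at 34.6 CPM beside 29.8 and 27.9, which had the few genes with counts. Without it the rise was 0.21 and did not pass, while the calls of the other 7 genes stayed as they were.

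**Figure D3:**
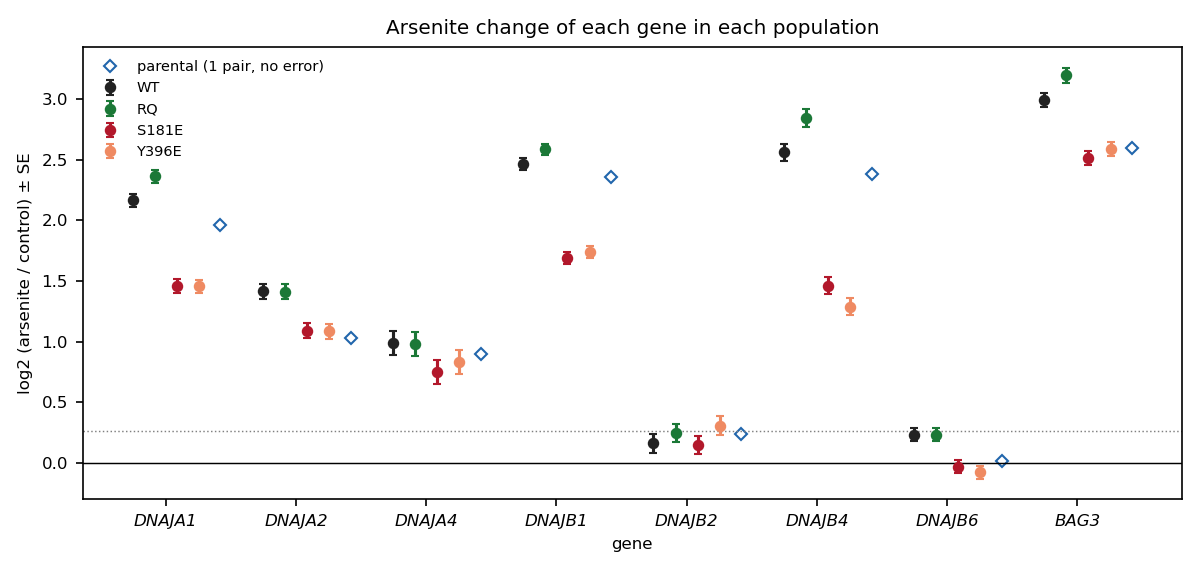
Fitted log2 change with arsenite ± SE for each gene in the 4 transgenic populations, with the single parental pair as open diamonds without error; the dotted line marks the fold threshold of 1.2. DNAJA1, DNAJB1, DNAJB4 and BAG3 lie lower in S181E and Y396E than in WT and RQ, and DNAJB2 and DNAJB6 lie near 0.

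Counted over the 8 genes, the arsenite response was smaller than in WT for 6 in S181E, where 9.41% of all tested genes were called smaller, and for 6 in Y396E (11.1%). They were DNAJA1, DNAJA2, DNAJB1, DNAJB4, DNAJB6 and BAG3 in each. The median difference of the 8 was -0.40 in S181E and -0.37 in Y396E, against -0.03 and -0.02 for all genes. The 2 comparisons share the WT libraries. Scaling by library totals alone moved the median difference of all genes by -0.11 and -0.10 and left both counts at 6. Among the transgenic cells IGF2BP1 RNA after arsenite was lowest in WT, at 29.2 ± 1.15 CPM, against 43.3 ± 0.69 CPM for S181E and 43.2 ± 1.26 CPM for Y396E. It was also higher in RQ (47.1 ± 0.86 CPM), where no response of the 8 genes was called different from WT. The part of the IGF2BP1 level in the smaller responses was not tested.

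The smaller responses came with different levels at the 2 treatments. In control cells, 2 of the 8 were higher than WT in S181E (15.7% of all genes) and 1 was lower (15.4%), and in Y396E 3 were higher (14.5%) and 1 lower (14.2%), counts too close to the shares of all genes to set the 8 apart. In arsenite, 5 of the 8 were lower in S181E (8.42%) and 5 in Y396E (11.9%), namely DNAJA1, DNAJA4, DNAJB1, DNAJB4 and BAG3. None was higher, where 5.32% and 9.77% of all genes were. For DNAJB1 and BAG3 the calls lay in the arsenite level, for DNAJA2 in the control level, and for DNAJA1 in both. DNAJB4 followed DNAJA1 in Y396E. Scaling by library totals alone raised all control differences, with a shift in the median of all genes of 0.16 in S181E and 0.13 in Y396E. The control calls then were 4 higher and 0 lower in each mutant, with DNAJA4 no longer called (-0.12 and -0.20), DNAJB6 added in both (0.33) and DNAJB4 added in S181E (0.40). The arsenite calls stayed at 5 lower in each. Over all genes 1309 were then called in S181E, 732 of them higher, and 1978 in Y396E, 1062 of them higher.

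**Figure D4:**
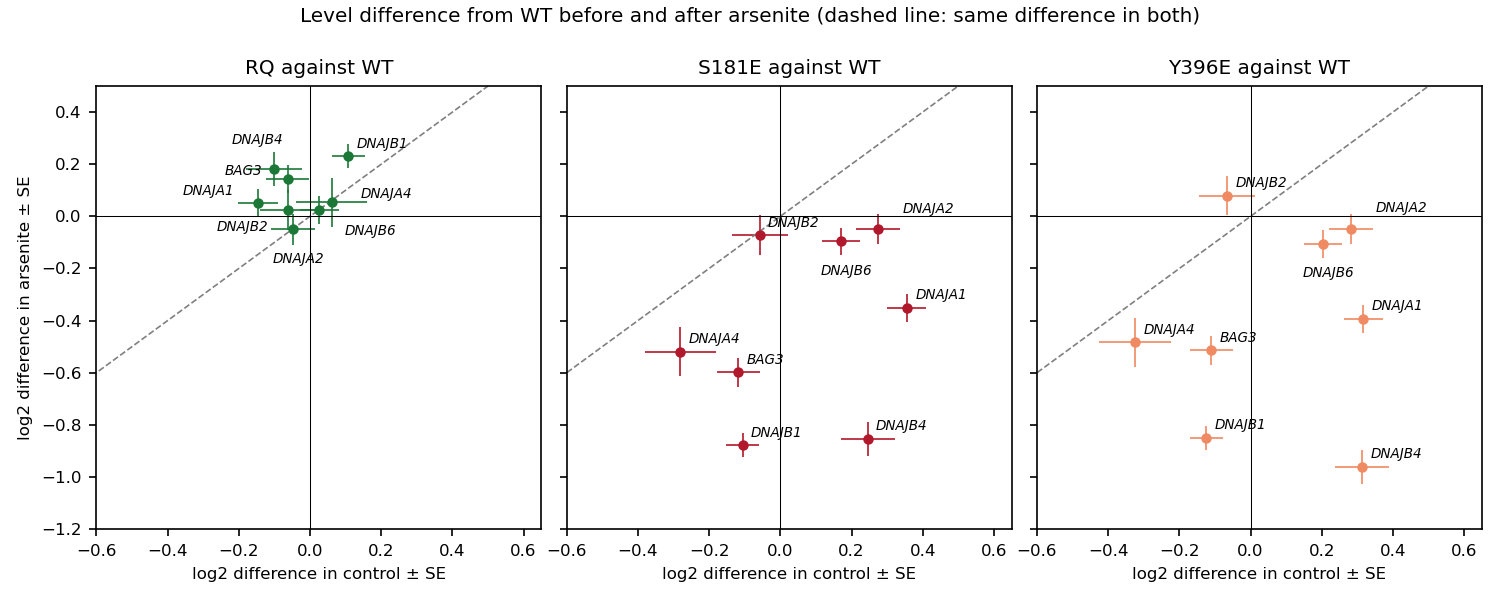
Fitted log2 level difference from WT ± SE in control (horizontal axis) and in arsenite (vertical axis) for the 8 genes, in RQ, S181E and Y396E; on the dashed line both differences are equal. In S181E and Y396E DNAJA1 and DNAJB4 lie to the right of 0 and below 0, DNAJB1 and BAG3 lie below 0 with control differences of -0.12 to -0.11, and DNAJA2 and DNAJB6 lie right of 0 near the horizontal line.

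RQ did not differ from WT for any of the 8 genes by these criteria, in control (1.43% of all genes called in either direction), in arsenite (1.52%) or in response (0.220%). DESeq2 called 0 as well, and at an unadjusted p under 0.05 edgeR had 2 of the 8 in control (14.1% of all genes), 3 in arsenite (11.2%) and 3 in response (3.66%). In arsenite DNAJB1, DNAJB4 and BAG3 of RQ, none of them called, lay above WT without overlap. Their differences were 0.23, 0.18 (95% interval 0.05 to 0.32) and 0.14 (0.03 to 0.26). The share of all genes without overlap between RQ and WT was not counted, so the lack of overlap does not set them apart. S181E and Y396E did not differ from each other for any of the 8 in control, in arsenite or in response, where edgeR called none of the tested genes (0%). For the 8, DESeq2 called 0 and none had an unadjusted p under 0.05 in edgeR, where 3.18% of all genes did in control, 15.1% in arsenite and 4.13% in response. Over all genes DESeq2 called 1 in control, 9 in arsenite and 0 in response. Without the second Y396E arsenite library 692 genes were called in arsenite, none of them among the 8. In arsenite the Y396E minus S181E differences lay between -0.11 for DNAJB4 (95% interval -0.25 to 0.03) and 0.15 for DNAJB2 (-0.01 to 0.31). Without the third Y396E arsenite library they lay between -0.10 for DNAJA4 and 0.05 for DNAJB2.

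In the parental pair, which allows no test, the 4 strongly induced genes rose 3.9-fold (DNAJA1), 5.14-fold (DNAJB1), 5.22-fold (DNAJB4) and 6.06-fold (BAG3), each less than in WT and above the folds of S181E and Y396E, for BAG3 by little (6.02-fold in Y396E). DNAJA2 rose 2.04-fold, below WT (2.66) and close to S181E (2.13) and Y396E (2.12). DNAJA4 rose 1.86-fold, from 34.9 to 65.1 CPM, between WT (1.98) and the mutants (1.68 and 1.78). DNAJB6 was at 1.01, below WT (1.18) and closer to S181E (0.976) and Y396E (0.948), and DNAJB2 was at 1.18. BAG3 at 87.2 CPM and DNAJB1 at 375 CPM in the control library were above all 12 control libraries of the transgenic cells, whose highest values were 61.3 and 333. The parental control library also lay outside the WT control libraries, on the side of the mutants, for other genes. DNAJA1 at 166 CPM, DNAJA2 at 60.1, DNAJB4 at 13.5 and DNAJB6 at 73.8 were above WT, and DNAJA4 at 34.9 was below it. The share of all genes outside the WT libraries was not counted, so these values do not set the members apart. In the parental arsenite library DNAJA4 was also below the WT libraries, which began at 79.9 CPM.

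HSF1, the main heat shock transcription factor, had less mRNA in the mutants. It was at 166, 160 and 168 CPM in WT control cells, against 108, 106 and 106 in S181E and 112, 106 and 112 in Y396E. In arsenite it was at 148, 147 and 150 CPM in WT, 111, 101 and 104 in S181E and 108, 104 and 93.8 in Y396E. The libraries did not overlap, and the difference was -0.63 ± 0.05 and -0.58 ± 0.05 in control and -0.50 ± 0.05 and -0.54 ± 0.05 in arsenite (edgeR, adjusted p = 1.97e-10, 9.13e-10, 1.69e-08 and 3.29e-09). RQ control libraries, at 146 to 158 CPM, lay below those of WT without overlap, and RQ arsenite libraries, at 146.2 to 150.5 CPM, overlapped WT. HSF1 was not called different between RQ and WT at either treatment. The parental cells, at 161 and 148 CPM, lay within the WT range. HSF1 lies on chromosome 8, where the median difference of 321 other tested genes was -0.42 in S181E and -0.41 in Y396E control cells and -0.44 and -0.45 in arsenite, against 0.03 and 0.02 elsewhere in control. None of the 8 co-chaperone genes is on that chromosome. The part of HSF1 mRNA in the smaller responses was not tested. HSF2, a second factor of the family, rose with arsenite by 1.54 in WT, 1.24 in S181E and 1.35 in Y396E, and the differences in response, -0.30 ± 0.15 and -0.19 ± 0.15, did not pass.

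Of 11 genes listed as the HSP70 system, 9 were tested. In WT arsenite 7 of the 9 rose (36.3% of all genes) and 1 fell (35.9%), the ubiquitin ligase gene STUB1 (-0.41). The response was smaller for 6 of the 9 in S181E (9.41%) and 6 in Y396E (11.1%), and larger for none (6.98% and 10.3%). In arsenite the level was lower than in WT for 2 of the 9 in each mutant (8.42% and 11.9%). By library totals alone 7 rose and 0 fell in WT, and 7 responded less in each mutant. Of the 9099 tested genes that scaling called 6430 for arsenite in WT, 3963 of them higher. For the response it called 1972 in S181E, 256 of them larger, and 2222 in Y396E, 405 of them larger. The inducible HSPA1B went from 23.9 ± 2.17 to 716 ± 10.1 CPM in WT, and its response was smaller by -1.32 ± 0.11 and -1.18 ± 0.11. Its reads cannot be fully separated from the near-identical HSPA1A. HSPH1, an exchange factor of HSP70, responded less by -0.72 ± 0.08 and -0.70 ± 0.08, and the constitutive HSPA8 by -0.49 ± 0.08 and -0.46 ± 0.08. Of 6 partners of BAG3, HSPB1 and SQSTM1 were tested. SQSTM1, the autophagy receptor p62, rose by 0.69 in WT, 0.40 in S181E and 0.48 in Y396E, and its smaller response passed in S181E (-0.28 ± 0.07) and not in Y396E (-0.21 ± 0.07). The arsenite change of HSPB1, a small heat shock protein, did not pass in any population. HSPB8, which forms a complex with BAG3, stayed at 2.55 to 7.41 CPM and CRYAB below 0.197 CPM.

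Of 42 other J-domain genes 31 were tested. In WT arsenite 9 of the 31 rose (36.3% of all genes), 13 fell (35.9%) and 9 did not pass, with a median of -0.21, counts near the shares of all genes. By library totals alone 12 rose and 10 fell, with a median of -0.05. The largest rises were those of GAK (1.09 ± 0.08) and DNAJC6 (1.04 ± 0.11), which uncoat clathrin vesicles, DNAJC13 (1.08 ± 0.09), which acts on endosomes, DNAJC7 (0.71 ± 0.07), an HSP70 and HSP90 adaptor, and DNAJC17 (0.52 ± 0.09). The largest falls were those of DNAJC22 (-0.94 ± 0.07), DNAJC19 (-0.88 ± 0.11), a mitochondrial import factor, and DNAJC4 (-0.83 ± 0.07). Against WT the response was smaller in S181E for 2 of the 31 (9.41% of all genes), DNAJC6 (-0.48) and DNAJC7 (-0.27). It was larger for 2 (6.98%), DNAJC22 (0.43) and DNAJC4 (0.32), both of which had fallen less. In Y396E 3 were smaller (11.1% of all genes) and 4 larger (10.3%). This split depended on the scaling. By library totals alone 5 were smaller and 1 larger in S181E, and 7 were smaller and 0 larger in Y396E. Of the 9099 tested genes that scaling called 1972 in S181E, 256 of them larger, and 2222 in Y396E, 405 of them larger. Smaller calls thus prevailed over all genes too, so these counts do not set the 31 apart. Of the 5 other BAG domain genes, BAG6, a quality control factor for membrane proteins, rose by 1.49 ± 0.05 in WT and by 1.39 in both S181E and Y396E, BAG1 and BAG5 fell by 0.67 and 0.45 on the log2 scale in WT, and none of the 5 differed in response between S181E or Y396E and WT, with 1 smaller in Y396E by library totals alone.

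**Figure D5:**
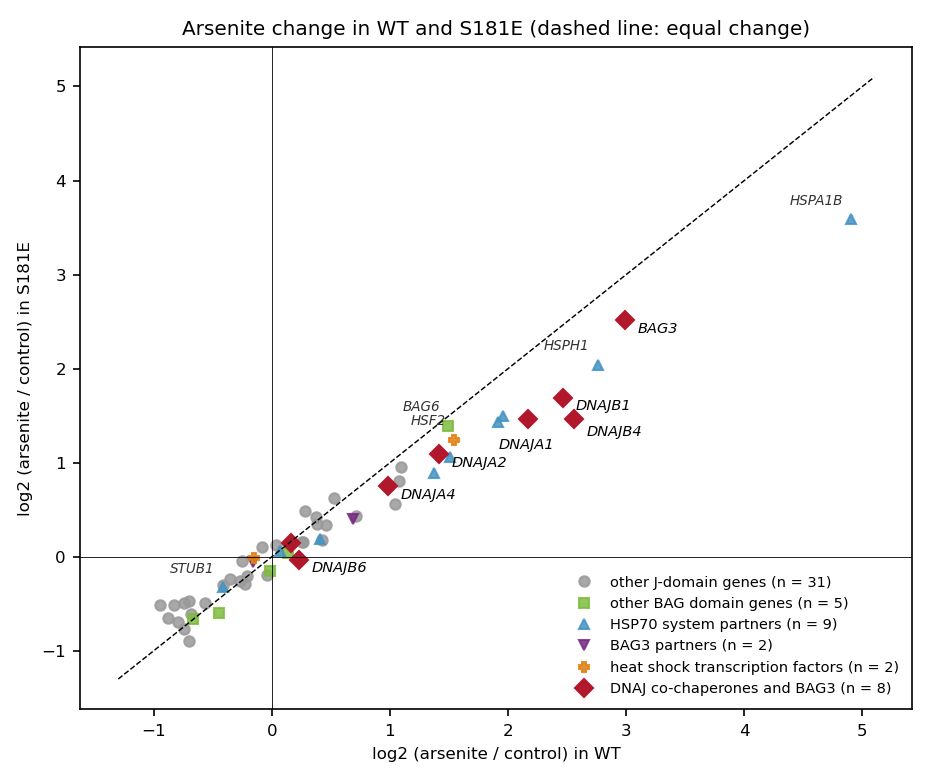
Fitted log2 arsenite change in WT (horizontal axis) and S181E (vertical axis) for the 8 genes (red diamonds) and for the other chaperone lists (grey, green, blue, purple and orange symbols); on the dashed line both changes are equal. DNAJB4, DNAJB1, DNAJA1 and BAG3 lie below the line with HSPA1B and HSPH1, while BAG6 lies near it.

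Over the 24 transgenic libraries, the tested gene most like DNAJB1 was HSPH1 (Pearson r of log2 CPM 0.997), that most like BAG3 was SCAF4 (0.997), followed by HSPA1B (0.997), and that most like DNAJA1 was JMJD6 (0.996). PDCD6IP came first for DNAJA2 (0.997), RBBP6 for DNAJB4 (0.986) and STAT6 for DNAJA4 (0.980). These libraries share 2 treatments that set most of the variance, and 1080 genes had an r over 0.95 with DNAJA1, 1208 with DNAJA2 and 854 with BAG3. No gene reached that for DNAJB2 or DNAJB6, whose closest were RABGGTA (0.915) and CSNK1A1 (0.919). Within the set, DNAJB1 was closest to BAG3 (0.985) and DNAJA1 to DNAJA2 (0.986).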

How the data were processed

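Poly(A) RNA of 26 HCT116 libraries was sequenced. The deposited values were raw counts per gene, which the authors made with STAR 2.7.11b on hg38 and featureCounts (Subread 2.0.6) against GENCODE basic genes, by strand and without an option for multimapping reads. Of 63086 identifiers, 62541 matched GENCODE v44 symbols. The members and gene lists were chosen with earlier results of these data known. From the counts, protein-coding genes above 10 CPM in at least 12 of the 24 transgenic libraries were kept (9099), scaled by TMM (factors 0.865 to 1.09) and fitted in edgeR 4.0.16 (quasi-likelihood, 8 group means, 16 residual degrees of freedom, common biological coefficient of variation 0.0682), with Benjamini-Hochberg adjustment over all genes per comparison. A call needed an adjusted p under 0.05 and a fold above 1.2. CPM are counts per 1000000 of the TMM-scaled totals of these genes. DESeq2 1.42.0 served as an alternative, beside other scalings, filters, thresholds, designs and the fit without each library.

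Totals of 22508145 to 50834401 counts put DNAJB4, the member with the fewest counts in control, at 250 counts in the second RQ control library. That was the lowest count of any member. Replicates were separately plated dishes of 1 population, so p-values measure the spread between dishes and not between independent populations. Replicate libraries differed beyond sampling noise (chi-square per gene 2.96 to 70.3 over 24 pairs). A relative measure cannot show a change of all mRNA per cell. Named genes were the 8 members, the 5 largest rises and 3 largest falls among other J-domain genes called in WT, any gene of the other lists, and the 3 genes most like each member. The model was tested on simulated counts. Sequences came from RefSeq promoter windows, with all 8 genes matched. The parental pair was described without a test.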

Additional observations from a re-analysis of the deposited data

Results flagged for a closer look

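The arsenite response differed from that of WT by the interaction test for 6 genes in each phosphomimetic population. The log2 differences for S181E and Y396E were -0.71 and -0.71 for DNAJA1, -0.32 and -0.33 for DNAJA2, -0.77 and -0.73 for DNAJB1, -1.10 and -1.27 for DNAJB4, -0.27 and -0.31 for DNAJB6, and -0.48 and -0.40 for BAG3. All 12 share the WT libraries.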

How the results depend on the processing

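Of 128 results, 8 genes in 16 comparisons, 113 kept their side of the threshold in all 32 other settings and 15 did not. Among called results 0 reversed direction. Some results that were not called did change sign, such as DNAJB1 for S181E against WT in control (-0.12 to 0.05 over the settings). Counts of the 8 genes called moved by over 1.5 times only with another fold threshold. Without a fold threshold S181E against WT in control had 5 and RQ against WT in arsenite 1 (DNAJB1). Above a fold of 2, S181E and Y396E against WT had 0 in control (79 and 75 of all genes) and 0 in arsenite (50 and 70). Their responses minus that of WT had 1 each (DNAJB4), against 12 and 21 of all genes. Without 1 library the count was 2 to 4 for S181E against WT in control, 3 to 4 for Y396E in control, 6 to 8 for arsenite in RQ, 6 to 7 for arsenite in Y396E and 5 to 6 for the S181E response minus WT. DNAJB2 and DNAJB6 passed in RQ arsenite without the third RQ control library (0.30 and 0.26) and, by library totals alone, in WT (0.32 and 0.39) and RQ (0.41 and 0.40). Those totals moved the share of higher calls over all genes from 50.3% to 61.6% for arsenite in WT, from 50.9% to 62% in RQ, from 50.4% to 83.6% for S181E and 50.5% to 81.1% for Y396E against WT in control, from 38.7% to 55.9% for S181E in arsenite, and from 42.6% to 13% and 48.1% to 18.2% for the responses of S181E and Y396E minus WT. Counts over all genes did move without 1 library, from 130 to between 74 and 263 for RQ against WT in control, from 138 to 70 to 218 in arsenite and from 20 to 8 to 38 in response. Without the second WT control library the response counts fell from 1491 to 746 in S181E and from 1954 to 1159 in Y396E. The DNAJA2 response difference in Y396E was lost when only the groups compared were fitted (adjusted p = 0.0595, edgeR). The cause of these changes was not tested.

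The groups shared replicate numbers, which the main fit did not use as pairs. The median correlation of same-numbered deviations was 0.05, with 22 of 84 pairs over 0.1, against -0.04 and 6 of 168 for other-numbered pairs. Some same-numbered libraries thus deviated together, and whether the numbers mark shared batches was not tested. With a replicate block the 8 genes kept the same counts, with 6 called for arsenite in WT and 6 for the S181E response minus WT.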
